A study of Homo sapiens with 7 samples.

Results

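NF-kB is a family of dimeric transcription factors best known from inflammation and cell survival. The 10 genes described here encode its 5 subunits (NFKB1, NFKB2, RELA, RELB and REL), 3 IkB proteins that hold the dimers inactive (NFKBIA, NFKBIB and NFKBIE), and TNFAIP3 and BIRC3, a pair of ubiquitin-editing regulators that dampen or tune the signal. They were taken by symbol from the raw count table, and all 10 were found among its 59251 rows. In DJL1 cells 9 of the 10 were higher than in CTRL cells, from 1.13-fold for NFKBIA to 3.16-fold for TNFAIP3, and RELA alone was lower, at 0.84 of its CTRL level. Differences were common in these data, with 27% of all tested genes higher and 25.1% lower at an adjusted p under 0.05.

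The cells were H9 human embryonic stem cells, an established line kept in the naive-state medium RSeT. Guide RNA plasmids were transfected, and poly(A) RNA was sequenced 48 h later in 4 libraries named CTRL and 3 named DJL1. Both groups were in medium with 10 nM DZNep, an inhibitor of histone methylation, and 5 nM TSA, an inhibitor of histone deacetylases, and had the CEPT survival cocktail for the initial 16 h. No group was free of these inhibitors. The labels speak of sorting before the assays and the design text of direct extraction, so it is unclear if cells were sorted. By its title the study is about LINE1 retrotransposons beside the ribosomal DNA repeats and about how the nucleolus is organized. The comparison asks which genes differ between DJL1 and CTRL cells. What the guides direct, and what CTRL cells received instead, is not given in the sources used here. Whether each replicate was its own culture is not stated either, and the p-values refer to variation among these libraries, part or all of which may be technical.

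Library totals ran from 62277489 to 76691997 counts in CTRL and from 34634882 to 37795742 in DJL1. The biological coefficient of variation, edgeR's measure of spread between libraries, came to 3.46% for CTRL and to 13.8% for DJL1. Both measures thus moved with the group, the labels give no batch, and a difference in library handling cannot be told apart from the transfection. The label of pluripotent cells was met by POU5F1, at 5248 to 5397 CPM in CTRL and 5153 to 5660 CPM in DJL1 (CPM is counts per 1000000 of the scaled library). SOX2 read 314 to 327 CPM in CTRL and 229 to 259.5 CPM in DJL1, and NANOG 119 to 122 and 76.4 to 90.6 CPM, so both were lower in DJL1 (log2 fold change -0.39 and -0.50). Of 12 pluripotent cell markers 4 were higher, 7 lower and 1 not called. The 4 higher genes, named after their values were seen, were KLF17, SUSD2, DNMT3L and DPPA3. Their log2 fold changes ran from 0.37 for DPPA3 to 1.92 for KLF17. Of all tested genes 27% were called higher and 25.1% lower. The 13 fibroblast and feeder-cell markers summed to 529 to 547 CPM in CTRL and 813 to 933 CPM in DJL1, of which COL1A1 made up 233 to 245 and 452 to 541 CPM. None of the 13 was at 0 in every library, with DCN and LUM at no more than 6 counts in any. Of the 10 tested 8 were higher in DJL1, against 27% of all tested genes. The 12 blood and immune markers summed to 19.0 to 20.5 CPM in CTRL and 23.0 to 26.2 CPM in DJL1, with the leukocyte gene PTPRC at 2 to 7 counts a library. Of the 8 tested, 3 were higher in DJL1, 1 lower and 4 not called. The higher genes were ITGAM, SPI1 and CD14 and the lower one CD68, all named after their values were seen. The part of the fibroblast and blood markers in the results on the NF-kB genes was not tested. In bulk RNA a change in a share of cells and a change in RNA per cell cannot be told apart.

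As background, the subunits share a Rel homology domain that binds DNA and joins 2 subunits into a dimer. In the canonical route an IkB kinase complex of IKBKB, CHUK and the scaffold IKBKG marks IkB proteins for destruction, which frees dimers such as those of RELA with the product of NFKB1. In the non-canonical route the kinase MAP3K14 acts through CHUK on the NFKB2 precursor, whose processed form pairs with RELB. Genes for several IkB proteins, for the subunits NFKB1, NFKB2, RELB and REL and for TNFAIP3 and BIRC3 are themselves textbook targets of NF-kB, which makes the family a set of feedback loops. Pluripotent cells are generally described as having weak canonical signaling.

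The start regions of these genes were searched for the letters of the DNA site that the family binds. Most of these genes are textbook targets of NF-kB (above), and a link between the letters and the changes was not tested. RefSeq's table (GRCh38.p14) gave 13 windows of 300 bases, from 250 before to 50 after a gene start, for 8 of the 10 genes; RELB and NFKBIE were not matched. Both strands were searched for the 10 bases of the kappa-B consensus (GGG, a purine, any base, A or T, a pair of pyrimidines, CC), and overlapping matches were merged into 1 site. The kappa-B consensus occurred in 8 of the 13 windows, at 12 sites, and in at least 1 window of 7 of the 8 genes. Of all 27303 genes with such windows 7.09% had it, as had 5.91% of all 35114 windows. RELA had none in its 2 windows, which says only that these letters are not there. Shown are 7 of the 12 sites: both of TNFAIP3, the one each of NFKB1 and NFKBIA, 1 of BIRC3 and 1 from each NFKB2 window that had any. The sites of REL and NFKBIB, 1 more of BIRC3 and 2 more of NFKB2 are not printed. They are given 5′ to 3′ on the gene's strand, with the match in capitals. Distances are to the start that the window was cut around. For TNFAIP3 that start is 137867259, which lies inside the gene's span from 137866349 to 137883312, as do both of its sites.
TNFAIP3, 67 bases before the start, chr6:137867182-137867211, + strand: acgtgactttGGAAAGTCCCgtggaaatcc
TNFAIP3, 55 bases before the start, chr6:137867194-137867223, + strand: aaagtcccgtGGAAATCCCCgggcctacaa
BIRC3, 199 bases before the start, chr11:102317260-102317319, + strand: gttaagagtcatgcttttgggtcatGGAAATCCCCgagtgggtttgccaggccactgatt
NFKB2, 107 bases before a middle start, chr10:102394461-102394490, + strand: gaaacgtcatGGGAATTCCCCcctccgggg
NFKB2, 21 bases before the last start, chr10:102395674-102395703, + strand: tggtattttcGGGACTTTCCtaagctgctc
NFKB1, 49 bases before the start, chr4:102501300-102501329, + strand: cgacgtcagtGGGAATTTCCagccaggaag
NFKBIA, 81 bases before the start, chr14:35404796-35404855, - strand: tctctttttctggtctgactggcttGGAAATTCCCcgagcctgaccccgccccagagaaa
The 30-base stretches overlap annotated exons of the same gene in GENCODE release 29, which lists further starts, and the 60-base stretches of BIRC3 and NFKBIA overlap no annotated exon. That of NFKB1 also overlaps an exon of a further gene, AF213884.3. A match is a description of sequence and was not measured as a bound site. Over the 7 genes with matches the log2 fold change ran from 0.18 for NFKBIA to 1.66 for TNFAIP3. Its relation to the matches was not tested.

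Of all genes counted, 26062 passed the filter on low counts, and at a Benjamini-Hochberg adjusted p under 0.05 in the quasi-likelihood test of edgeR 52% of them were called, 27% higher and 25.1% lower in DJL1. Against that background all 10 NF-kB genes passed the filter and were called, 9 higher and 1 lower. Calls alone were therefore common in these data. The median log2 fold change of the 10 was 0.70, and that of all tested genes 0.01. At least 2-fold higher were 4 of the 10 (TNFAIP3, BIRC3, NFKB2 and RELB), as were 10.7% of all tested genes. For each of the 10, no DJL1 value lay within the CTRL range, which held for 53.6% of all tested genes, 27.4% with DJL1 higher and 26.2% with DJL1 lower. The 10 genes were chosen with earlier results of these data known. The contrasts with all tested genes are therefore descriptive only.

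**Figure D1:**
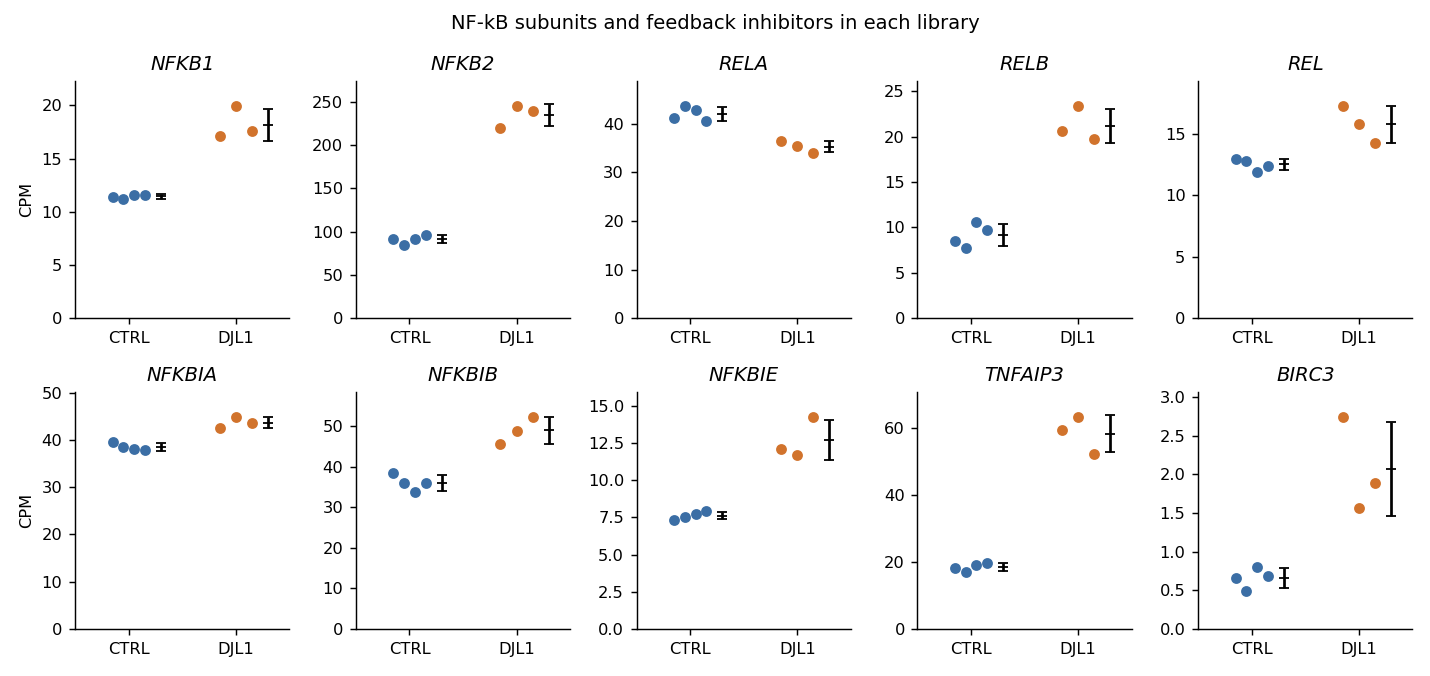
CPM of each gene in each library, with CTRL libraries in blue, DJL1 libraries in orange, and a black bar for the mean and SD beside each group (4 CTRL and 3 DJL1 libraries, axes from 0). The groups are separate in every panel, with RELA the only gene lower in DJL1 and NFKBIA (37.9 to 39.7 against 42.5 to 44.9 CPM) the closest pair among the higher genes by fold.

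Among the subunits, the precursor gene NFKB2 had the firmest change. Its product p100 both restrains RELB as an IkB-like protein and gives rise to the DNA-binding p52. NFKB2 (chromosome 10, 102394110 to 102402529, GRCh38.p14) read 91.2, 84.9, 91.5 and 96.2 CPM in the CTRL libraries and 219.9, 244 and 240 CPM in the DJL1 libraries. The lowest DJL1 library was thus more than double the highest CTRL library. The means were 90.9 ± 4.64 CPM (SD, n = 4) and 235 ± 12.9 CPM (SD, n = 3), which gave a log2 fold change of 1.37 ± 0.05 (SE; edgeR, adjusted p = 2.5e-11). By p-value NFKB2 ranked 15 of 26062 genes, and 16 of 20199 in the authors' deposited table, although by fold change it ranked 1873.

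RELB, whose protein pairs mainly with p52 and p100, rose alongside. RELB (chromosome 19, 45001464 to 45038192) read 8.52, 7.77, 10.6 and 9.69 CPM in CTRL and 20.6, 23.3 and 19.7 CPM in DJL1. Relative to its mean, RELB spread more over the CTRL libraries than the other subunits did (coefficient of variation 13.55%), but none came near the DJL1 values. Its log2 fold change was 1.22 ± 0.10 (SE; edgeR, adjusted p = 8e-08). NFKB1, whose precursor p105 is processed to p50, the common partner of RELA, rose less. NFKB1 (chromosome 4, 102501359 to 102617302) read 11.4, 11.2, 11.6 and 11.6 CPM in CTRL and 17.1, 19.9 and 17.6 CPM in DJL1. All 3 DJL1 libraries lay well above a tight CTRL group, at a log2 fold change of 0.67 ± 0.07 (SE; edgeR, adjusted p = 1.8e-06).

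REL, which encodes c-Rel, a subunit best known from lymphocytes, had a small increase. REL (chromosome 2, 60881574 to 60931612) read 13.0, 12.8, 11.9 and 12.3 CPM in CTRL and 17.2, 15.8 and 14.2 CPM in DJL1. DJL1 replicate 3 was the nearest to CTRL, and the log2 fold change was 0.34 ± 0.08 (SE; edgeR, adjusted p = 0.002). GENCODE release 29 has a further gene, AC010733.2, whose exons share 5702 bases with those of REL on the same strand, so its reads could be counted with REL. RELA encodes p65, the main activating subunit of the canonical route. RELA (chromosome 11, 65653601 to 65663857) read 41.2, 43.5, 42.8 and 40.5 CPM in CTRL and 36.5, 35.4 and 34.0 CPM in DJL1. Every DJL1 library was below every CTRL library, by a small margin, and RELA fell by 0.25 ± 0.05 on the log2 scale (SE; edgeR, adjusted p = 0.00056).

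The IkB genes rose by small to moderate amounts. NFKBIA encodes IkB-alpha, the fast feedback inhibitor that is degraded and resynthesized in the canonical response. NFKBIA (chromosome 14, 35401513 to 35404749) read 39.7, 38.6, 38.1 and 37.9 CPM in CTRL and 42.5, 44.9 and 43.7 CPM in DJL1. The groups did not overlap, but this was the smallest change among the 10, at a log2 fold change of 0.18 ± 0.05 (SE; edgeR, adjusted p = 0.0041). With the replicate number as a block the adjusted p was 0.036, the largest over all its alternatives, and the call held.

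NFKBIB, the gene of IkB-beta, read 38.4, 35.9, 33.7 and 35.9 CPM in CTRL and 45.7, 48.9 and 52.2 CPM in DJL1. The separation was clear in all libraries, at a log2 fold change of 0.44 ± 0.06 (SE; edgeR, adjusted p = 9.9e-06). Its exons share 40 bases with those of SIRT2 on the opposite strand (18.9 CPM in CTRL and 20.6 CPM in DJL1), and the strand setting of the counting is not given in the sources used here. NFKBIE encodes IkB-epsilon, a slower feedback inhibitor. NFKBIE (chromosome 6, 44258166 to 44265551) read 7.35, 7.50, 7.72 and 7.91 CPM in CTRL and 12.1, 11.7 and 14.2 CPM in DJL1, for a log2 fold change of 0.74 ± 0.09 (SE; edgeR, adjusted p = 5.1e-06). Of the 3 IkB genes it was the least abundant and had the largest fold change.

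TNFAIP3 encodes A20, an enzyme that edits ubiquitin chains on RIPK1 and other adaptors and so shuts signaling down upstream of the IkB kinases. TNFAIP3 (chromosome 6, 137866349 to 137883312) read 18.1, 16.8, 19.1 and 19.7 CPM in CTRL and 59.3, 63.2 and 52.2 CPM in DJL1. Even the lowest DJL1 library stood far above the CTRL range. The log2 fold change was 1.66 ± 0.07 (SE; edgeR, adjusted p = 9.2e-11), rank 46 of 26062 by p-value and percentile 95.4 by fold change.

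BIRC3, the gene of cIAP2, a ubiquitin ligase at tumor necrosis factor receptors that also limits MAP3K14, was close to the detection limit. BIRC3 (chromosome 11, 102317484 to 102339403) had 41, 37, 50 and 45 counts in CTRL and 105, 55 and 70 in DJL1. Since the DJL1 libraries held fewer counts in all, these were 0.66, 0.49, 0.80 and 0.68 CPM against 2.74, 1.57 and 1.89 CPM. DJL1 replicate 1 was the highest, and the log2 fold change of 1.66 ± 0.26 (SE; edgeR, adjusted p = 5.8e-05) was 1.39 without it. Its standard error was the largest of the 10.

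**Figure D2:**
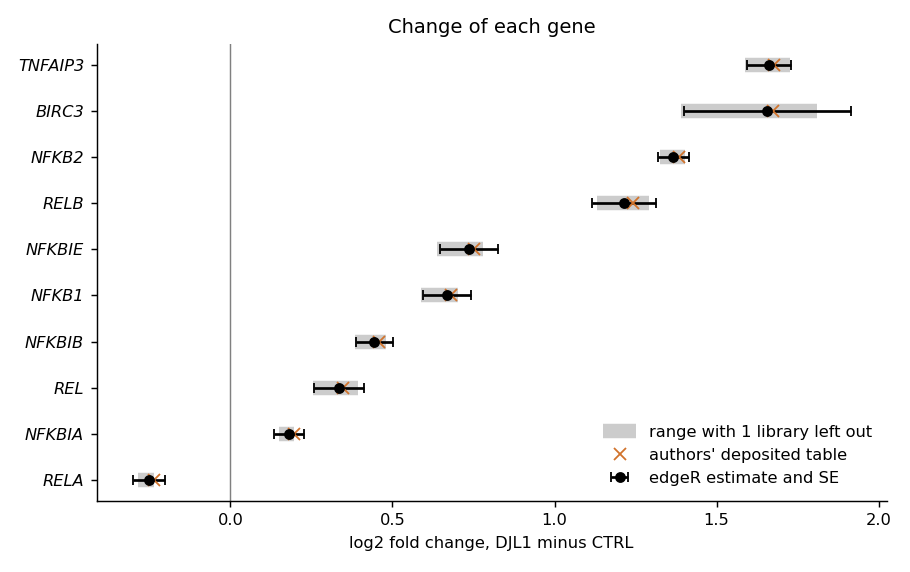
Log2 fold change of DJL1 against CTRL for each gene, as the edgeR estimate with its SE (black), the range when any 1 library is left out (grey bar) and the value in the authors' deposited table (orange cross). TNFAIP3 and BIRC3 (both 1.66) stand at the top and RELA (-0.25) is the only gene left of 0, and no grey bar reaches 0.

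The authors' deposited table gave the same direction for each of the 10 genes. In the authors' deposited table the log2 fold changes were 1.38 for NFKB2, 1.68 for TNFAIP3, 1.67 for BIRC3, 1.24 for RELB, 0.20 for NFKBIA and -0.24 for RELA. Both sets of values come from the same 7 libraries.

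Levels of different genes were compared as CPM per kb of exon (the union of a gene's GENCODE exons). In CTRL cells NFKB2 was highest at 20.3 ± 1.03 CPM per kb (SD, n = 4), followed by NFKBIA at 16.3 ± 0.33 and NFKBIB at 15.5 ± 0.83. The ranges of NFKBIA and NFKBIB overlapped. RELA, at 7.69 ± 0.25 CPM per kb, was above TNFAIP3 (3.65 ± 0.25), RELB (3.01 ± 0.41) and NFKBIE (2.95 ± 0.09). The range of RELB overlapped those of TNFAIP3 and NFKBIE, so their order is not resolved. NFKB1 (1.83 ± 0.03), REL (0.95 ± 0.04) and BIRC3 (0.09 ± 0.02 CPM per kb) followed, each apart from the next.

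In DJL1 cells NFKB2 stood further from the rest, at 52.3 ± 2.89 CPM per kb (SD, n = 3). NFKBIB (21.0 ± 1.40) and NFKBIA (18.4 ± 0.49 CPM per kb) changed places in the order, without overlap. Per kb of the longest transcript they did not, with NFKBIA at 24.7 and NFKBIB at 16.3 CPM per kb in CTRL and at 28.0 and 22.2 CPM per kb in DJL1. Per kb of exon TNFAIP3, at 11.5 ± 1.10 CPM per kb, was now above RELA (6.46 ± 0.22), and RELB (6.98 ± 0.62 CPM per kb) had come up to a range that overlapped that of RELA. Per kb of the longest transcript the DJL1 ranges of TNFAIP3 (11.03 to 13.34) and RELA (10.69 to 11.45) overlapped. That of RELB (8.58 to 10.16 CPM per kb) then lay below RELA, so these orders depend on the length used. With the longest transcript in place of the union of exons, 8 of the 10 genes kept their rank in CTRL and 6 in DJL1, and by mean NFKB2 was highest and BIRC3 lowest in both. In CTRL the ranges of NFKB2 (24.85 to 28.16) and NFKBIA (24.34 to 25.45 CPM per kb) then overlapped, so the top rank is not resolved there.

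**Figure D3:**
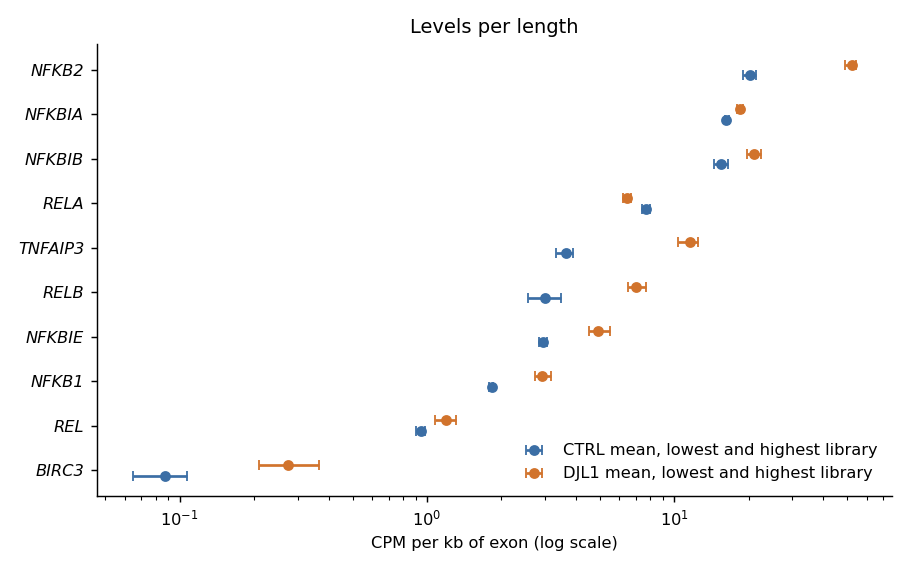
CPM per kb of exon for each gene on a log axis, with points for the mean and bars from the lowest to the highest library of CTRL (blue) and DJL1 (orange). NFKB2 is highest in both groups (20.3 and 52.3 CPM per kb) and BIRC3 lowest, and by this length TNFAIP3 passes RELA in DJL1.

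As a share of the per-length RNA of the 5 subunits, NFKB2 took 60.05 ± 1.30% in CTRL (SD, n = 4) and 74.9 ± 1.31% in DJL1 (SD, n = 3). RELA took 22.8 ± 1.43% and 9.26 ± 0.66%, and the ranges of the libraries did not overlap for either gene. The share of RELB was 8.90 ± 0.95% and 9.99 ± 0.65%, with overlapping ranges, and NFKB1 and REL together held the remainder. Within the 3 IkB genes NFKBIA took 46.9 ± 0.73% in CTRL and 41.5 ± 1.60% in DJL1, and NFKBIE 8.52 ± 0.48% and 11.1 ± 0.85%. All shares use the union of exons alone. Their SDs cover the spread between libraries and not the choice of length, which would shift the shares.

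Ratios of counts within a library do not depend on how libraries are scaled. For 8 pairs, chosen after the values were seen, the ratio was taken in each library and tested by an exact permutation test, 2-sided, whose smallest possible p with 4 against 3 libraries is 0.0571. RELB per RELA count was 0.21, 0.18, 0.25 and 0.24 in CTRL and 0.56, 0.66 and 0.58 in DJL1. That is a 2.77-fold shift with no overlap (exact permutation p = 0.0571, adjusted over 8 pairs 0.0653). The lack of overlap, and with it this p, was fixed by the single genes, with RELB higher and RELA lower. NFKB2 per NFKB1 count was 7.97, 7.60, 7.91 and 8.28 in CTRL and 12.9, 12.3 and 13.6 in DJL1, a 1.63-fold shift. REL per RELA count was 0.31, 0.29, 0.28 and 0.30 in CTRL and 0.47, 0.45 and 0.42 in DJL1, a 1.498-fold shift. Each of these 3 ratios was higher in every DJL1 library than in any CTRL library, which for RELB and REL per RELA count the single genes already fix.

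TNFAIP3 per NFKBIA count was 0.46, 0.44, 0.50 and 0.52 in CTRL and 1.40, 1.41 and 1.20 in DJL1, a 2.79-fold shift. Per kb of exon TNFAIP3 still lay below NFKBIA in both groups. NFKBIA per RELA count rose from 0.89 to 0.96 over the CTRL libraries to 1.17 to 1.28 over the DJL1 libraries. In all, 7 of the 8 ratios were without overlap between the groups, each at the smallest p possible (exact permutation p = 0.0571), and none can reach 0.05 in this design. The exception was NFKB2 per RELB count, at 8.65 to 10.9 in CTRL and 10.5 to 12.2 in DJL1 (1.11-fold, exact permutation p = 0.343), for which a difference was not resolved. For RELB, REL and NFKBIA per RELA count, the lack of overlap follows from the single genes and is no separate result. RELA was lower, and each of the others higher, without overlap between the groups.

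**Figure D4:**
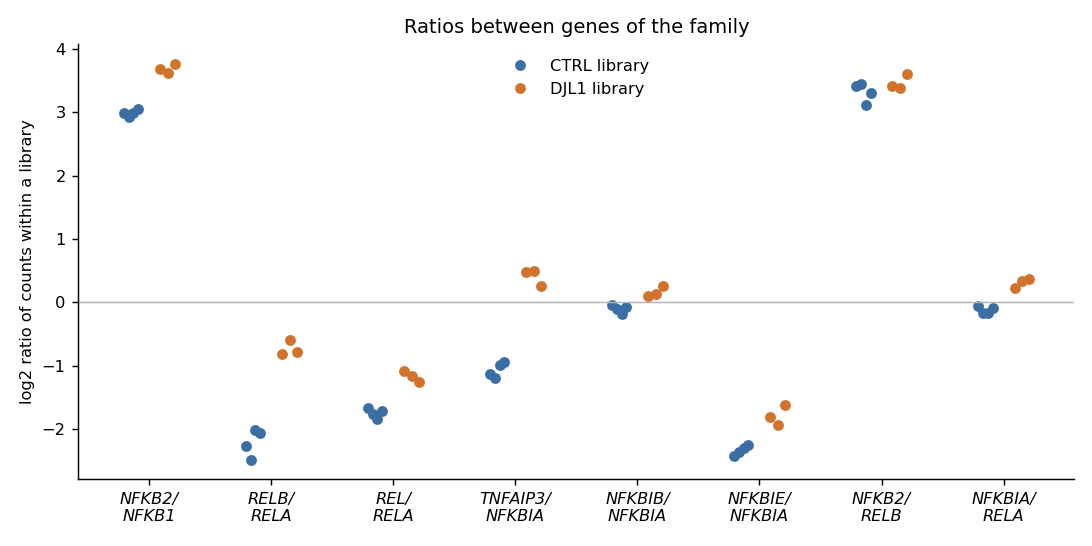
Log2 ratio of the counts of 2 genes within each library, for CTRL (blue) and DJL1 (orange), with a line at equal counts (not equal levels, since lengths differ). Groups are apart for 7 of the 8 pairs and overlap for NFKB2 per RELB, and the widest gaps are those of TNFAIP3 per NFKBIA (2.79-fold) and RELB per RELA (2.77-fold).

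The rest of the pathway did not move as one. Of 42 receptor, adaptor and kinase genes, all tested, 16 were higher, 17 lower and 9 not called (median log2 fold change 0.02). The shares over all tested genes were 27% higher and 25.1% lower. This list and the pathway lists below were also chosen with earlier results of these data known. Among the IkB kinase genes, IKBKG, the scaffold, read 33.0 to 33.9 CPM in CTRL and 23.0 to 27.2 CPM in DJL1 and fell by 0.42, and IKBKB fell by 0.31 on the log2 scale (edgeR, adjusted p = 2.3e-05 and 0.00036). CHUK, the kinase subunit that both routes use, read 45.8 to 49.3 and 44.4 to 50.3 CPM, with overlap (log2 fold change -0.00 ± 0.05). MAP3K14, the kinase of the non-canonical route, rose from 7.08 to 7.39 CPM over the CTRL libraries to 11.1 to 12.1 CPM over the DJL1 libraries (log2 fold change 0.69; edgeR, adjusted p = 4.2e-06).

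The largest upstream increase among the named genes was that of TNFRSF1B, a receptor for tumor necrosis factor, at 0.67 to 0.98 CPM in CTRL and 2.62 to 4.37 CPM in DJL1 (log2 fold change 1.998 ± 0.22). BCL10, an adaptor of antigen receptor signaling, and the receptor gene TNFRSF12A rose by 0.77 and 0.61. Lower were RBCK1, a subunit of the linear ubiquitin ligase (-0.59), the ubiquitin-conjugating enzyme gene UBE2N (-0.56) and MAVS, the adaptor of cytosolic RNA sensors (-0.48). BIRC2, the close relative and chromosomal neighbor of BIRC3, fell by 0.17 (edgeR, adjusted p = 0.01) while BIRC3 rose, and XIAP rose by 0.21.

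Of 22 other IkB proteins and brakes 21 were tested, with 9 higher, 1 lower and 11 not called (median 0.13). Among all tested genes 27% were higher and 25.1% lower. CYLD, a deubiquitinase that opposes the kinases upstream, read 25.0 to 26.9 CPM in CTRL and 38.4 to 44.1 CPM in DJL1, for a log2 fold change of 0.69 ± 0.06. BCL3, a nuclear IkB protein that binds p50 and p52, rose by 0.68, and TAX1BP1 and TNIP1, partners of A20, by 0.51 and 0.34. PDLIM2, which promotes turnover of p65, NLRC5 and the endoribonuclease gene ZC3H12A rose by 0.68, 0.49 and 0.52. The lower gene, named after its value was seen, was COMMD1 (log2 fold change -0.38; edgeR, adjusted p = 0.018), whose call was lost without DJL1 replicate 2 (adjusted p = 0.069) and without DJL1 replicate 3 (adjusted p = 0.05 after rounding).

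Of 36 textbook target genes outside the family 27 were tested, with 17 higher, 2 lower and 8 not called (median 0.52). Among all tested genes 27% were higher and 25.1% lower. CCL5, a chemokine that interferon signaling also drives, rose the most, from 1.29 to 2.77 CPM in CTRL to 20.8 to 25.4 CPM in DJL1 (log2 fold change 3.44 ± 0.19). IL1A, an alarm cytokine, and PLAU, the urokinase gene, rose by 1.48 and 1.09. GADD45B, IRF1 and IER3, which are quick to respond to stress and cytokines, rose by 0.88, 0.83 and 0.52. The 2 lower genes, named after their values were seen, were the chemokine gene CCL2 (-0.71; edgeR, adjusted p = 0.002) and the survival gene BCL2L1 (-0.13; edgeR, adjusted p = 0.043). The call on BCL2L1 was lost without any 1 of the 4 CTRL libraries (adjusted p = 0.056 to 0.14) or without DJL1 replicate 1 (adjusted p = 0.13).

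Cytokine genes of the list differed among themselves. IL1A rose (above), as did LTA (log2 fold change 1.24; edgeR, adjusted p = 5.8e-05) and LTB (1.13, adjusted p = 0.032), lymphotoxin genes of the tumor necrosis factor family that were named after their values were seen. TNF read 4.06, 1.78, 2.65 and 3.41 CPM in CTRL and 2.48, 5.99 and 1.75 CPM in DJL1, with groups that overlapped (log2 fold change 0.19 ± 0.42; edgeR, adjusted p = 0.73). IL6 read 3.51 to 4.04 CPM in CTRL and 1.89 to 3.60 CPM in DJL1 (log2 fold change -0.44 ± 0.18; edgeR, adjusted p = 0.053). Its adjusted p was under 0.05 without DJL1 replicate 2 (0.004, log2 fold change -0.69), with RLE size factors (0.048), with no filter (0.016), by DESeq2 (0.041) and by limma-voom (0.033). IL1B had 1 to 6 counts a library and CXCL8 at most 6, which is too few for a comparison. IFNB1, the interferon gene that NF-kB helps to switch on, had no count in any CTRL library and 4, 2 and 0 counts in the DJL1 libraries, so no fold is given.

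**Figure D5:**
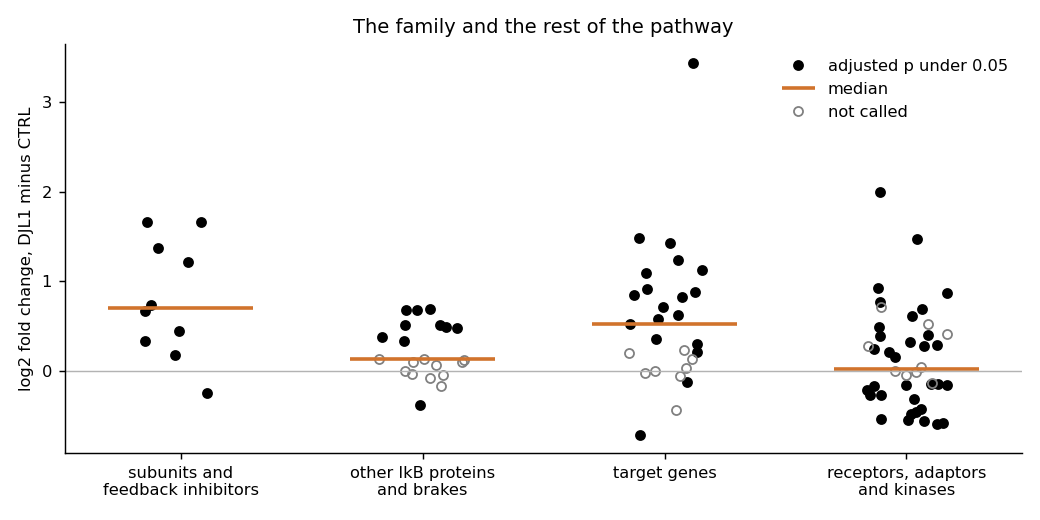
Log2 fold change of each tested gene in the family and in the 3 other lists of the pathway, filled where the adjusted p was under 0.05 and open where not, with an orange line at each list's median. The medians are 0.70 for the family, 0.13 for other brakes, 0.52 for targets and 0.02 for receptors, adaptors and kinases, and the last list spreads to both sides of 0.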

How the data were processed

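The authors deposited raw counts per gene symbol for 7 libraries, used here unchanged, and a table of log values that was not used. Their deposited comparison lists, per the file headers, the log2 fold change of each gene with its p-value and adjusted p-value, from the authors. Per the submitters' processing notes the tools were HISAT2 2.2.1, Trim Galore 0.4.0, featureCounts and Subread 1.5.0, with GRCh38 and hg38. The strand setting and the treatment of multi-mapping reads: not given in the sources used here. Groups were read from sample titles.

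Genes passing edgeR's filterByExpr (minimum count 10, minimum total 15) were scaled by TMM and compared by edgeR's quasi-likelihood test (robust, 2-sided, Benjamini-Hochberg over all 26062 tested genes). The test was also run on simulated data with far fewer changed genes than were called here, so that run does not cover this condition. The SE is the fold change over the root of the F statistic. Values are mean ± SD in scaled CPM. Library totals of 34634882 to 76691997 counts leave BIRC3, at 37 to 105 counts, the least precise of the 10. Versions were Python 3.11.15, DESeq2 1.42.0, limma 3.58.1 and edgeR 4.0.16 under R 4.3.3. Gene positions are from RefSeq GRCh38.p14, exon lengths from GENCODE release 29.

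Members and lists were chosen with earlier results of these data known. Named genes were the 10 members, the 6 with the smallest adjusted p in each pathway list, and TNF, IL1B, IL6, CXCL8, IFNB1, CHUK, IKBKB, IKBKG, MAP3K14, BIRC2, XIAP, BCL3, TNIP1 and CYLD, with POU5F1, NANOG, SOX2, COL1A1 and PTPRC as markers. Alternatives were other scalings, tools and filters, thinned counts, a threshold of 0.01, leaving out each library and the replicate number as a block.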

Additional observations from a re-analysis of the deposited data

Results flagged for a closer look

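Among the named genes, 2 had 1 CTRL library far from the other 3. IKBKB stood at 29.2, 29.2, 29.2 and 30.1 CPM, where the gap below the highest library was 0.92 of the whole range. PDLIM2 stood at 9.78, 9.81, 9.87 and 10.5 CPM, where that gap was 0.88 of the range. Chance alone gives about 1 such case in 20 groups, and 45 genes were screened. None of the 10 NF-kB genes was among them, and for both genes the DJL1 libraries lay outside the CTRL range.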

How the results depend on the processing

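For each of the 10 NF-kB genes the direction and the call held under all 18 alternatives, with 9 higher and 1 lower in each, also with any 1 library left out. With 1 library left out, REL ranged from 0.26 to 0.39, RELA from -0.29 to -0.23, NFKBIA from 0.15 to 0.20 and BIRC3 from 1.39 to 1.81 (log2 fold change). Scaling moved the median of all tested genes by at most 0.02. Of 145 counts under alternatives, 132 stayed within 1.5 times the reported value. The count of other brakes called lower, COMMD1 as reported, was 0 at an adjusted p of 0.01 and ran from 0 to 1 with 1 library left out, where without DJL1 replicate 2 it was NKIRAS2 (adjusted p = 0.042) and not COMMD1; in edgeR at an unadjusted p under 0.05, and by DESeq2 and limma-voom, it was 1. Target genes called lower numbered 1 in place of 2 with upper quartile factors, library size alone, limma-voom with a variance for each group, the stricter filter, an adjusted p of 0.01 and the replicate block, 3 with RLE size factors, DESeq2, limma-voom and no filter, where IL6 was added, and 1 to 3 with 1 library left out. Ratios within libraries were recomputed without each library, an alternative added after seeing the data, and kept their direction. No pairing of libraries by replicate number was seen, though a weak one could be missed. Deviations of same-numbered libraries correlated at -0.01, -0.04 and -0.02, and in the replicate block fit the 10 genes gave the same 9 higher and 1 lower. Depth limits BIRC3, IL1B, CXCL8 and IFNB1.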
